A study of Homo sapiens with 6 samples.

Results

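The potassium channel genes were the rows of the deposited counts table whose symbol is KCN, further letters and a closing number, 95 of the 63140 genes listed. They were compared between NOZ-R and NOZ. NOZ-R is a gallbladder cancer line made resistant to the nucleoside analogue gemcitabine by raising the dose in steps, and NOZ is the established human line it came from, with 3 bulk poly-A RNA-seq libraries of each. The labels do not say whether NOZ-R is 1 clone, whether drug was present at harvest, or whether replicates came from different cultures, and the p-values reflect only how these libraries vary, and that variation may be technical.

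Potassium channels let potassium leave or enter the cell along its gradient and so set the membrane potential, cell volume and the driving force for other ions. In secretory epithelia such as the biliary tract, potassium exit through basolateral channels sustains chloride and fluid secretion. Inward rectifiers (KCNJ) pass potassium more easily inward than outward, K2P channels (KCNK, named for a pair of pore domains in each subunit) carry the background leak, voltage-gated channels (KCNA to KCND, KCNH and KCNQ) open on depolarisation, and KCNM, KCNN and KCNT channels open on calcium, sodium or voltage. Silent subunits (KCNF, KCNG, KCNS and KCNV) form no channel alone and modify others. The KCNAB, KCNE, KCNIP and KCNMB genes encode auxiliary subunits.

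Total counts were 14136037 to 19244923 per library. The epithelial origin fitted the markers only in part. The 10 biliary epithelial markers summed to 3535 to 3621 CPM in NOZ-R and to 2678 to 3156 CPM in NOZ (CPM, counts scaled to library size and composition), with keratins KRT7, KRT8, KRT18 and KRT19 abundant. E-cadherin (CDH1) averaged 0.290 CPM in NOZ-R and 1.03 CPM in NOZ. EPCAM averaged 49.5 CPM in NOZ-R and 73.1 CPM in NOZ, and CLDN4 76.8 CPM in NOZ-R and 145.9 CPM in NOZ. In the fit described below, 4 of the 9 biliary markers tested were higher in NOZ-R, and 3 (CDH1, EPCAM and CLDN4) were lower. The 8 neuronal markers summed to 6.80 to 8.25 CPM in NOZ-R and 7.79 to 9.64 CPM in NOZ, with STMN2 and GAP43 at 0. The 7 muscle markers summed to 4.59 to 5.36 CPM in NOZ-R and 6.16 to 7.04 CPM in NOZ, with TNNT2 at 0. The 9 fibroblast markers summed to 11.3 to 12.0 CPM in NOZ-R and 3.10 to 3.59 CPM in NOZ, where COL1A2, THY1, DCN, LUM, FAP and POSTN were at 0. The 6 leukocyte markers summed to 3.89 to 5.51 CPM in NOZ-R and 2.77 to 5.74 CPM in NOZ, with MS4A1 at 0. The 5 endothelial ones summed to 9.07 to 10.2 CPM in NOZ-R and 2.44 to 2.80 CPM in NOZ. Of these, PECAM1 averaged 9.21 CPM in NOZ-R and 1.87 CPM in NOZ, and CDH5 0.401 CPM in NOZ-R and 0.545 CPM in NOZ. VWF, KDR and CLDN5 each averaged 0.107 CPM or less in either line. The part of cells with such markers in the potassium channel results was not tested. In such bulk libraries, fewer cells that express a gene and less of its RNA per cell cannot be told apart.

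The number of potassium channel genes read in the lines was small, and 3 of them were read almost solely in NOZ-R. A gene was taken as detected in a line when its 3 libraries held at least 10 counts in sum and at least 1 each. By this rule 34 of the 95 genes were detected in NOZ-R and 26 in NOZ. Of these, 23 were detected in both lines, 11 in NOZ-R only and 3 in NOZ only, and 58 were detected in neither. Over all protein-coding genes the share detected in NOZ-R only was 3.25% and in NOZ only 1.79%, with 62.2% detected in both and 32.8% in neither. Of the 58 undetected genes, 30 had no count in any library, which allows up to 0.0610 CPM in NOZ-R and 0.0568 CPM in NOZ (3 counts over each group, counting error only). They include the cardiac repolarisation channel KCNH2, KCNE1 to KCNE3 and 7 K2P genes. The count detected depends on the rule. A minimum of 1 CPM in every library left 19 genes in NOZ-R and 14 in NOZ. With at least 1 count in any library the order was reversed, at 56 genes in NOZ-R and 58 in NOZ.

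**Figure D1:**
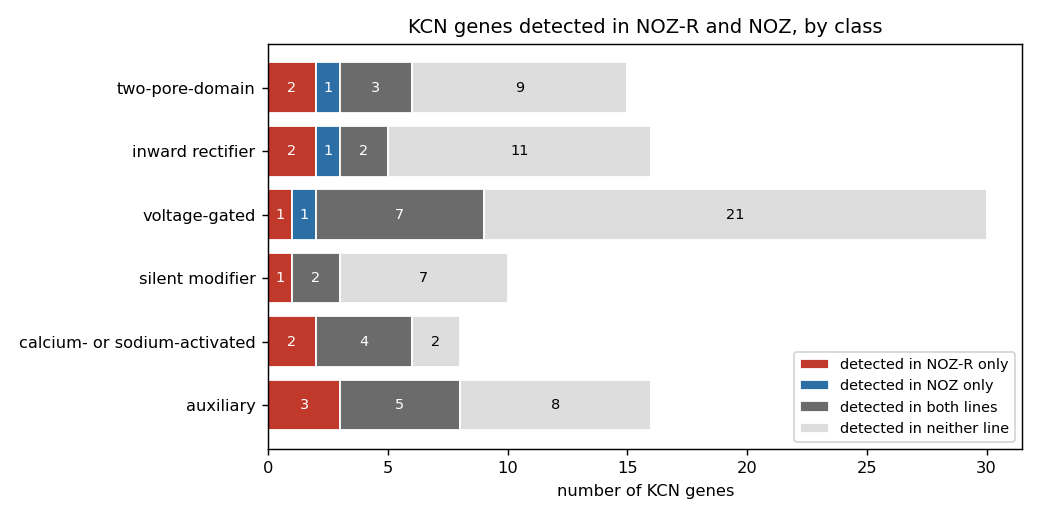
Number of KCN genes (horizontal axis) detected in NOZ-R only, NOZ only, both lines or neither, for each class of subunit (vertical axis), with the number of genes printed in each bar segment. The voltage-gated class has the most undetected genes, 21 of 30, and 11 genes over all classes were detected in NOZ-R only, against 3 in NOZ only.

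Most of the genes detected in 1 line only lay close to the limit of the rule. Those that stood clear were the K2P channel KCNK5, the inward rectifier KCNJ15 and the auxiliary subunit KCNE4, described below with their classes, and KCNN2. KCNN2, which encodes the small-conductance calcium-activated channel SK2, had 15, 12 and 7 counts in NOZ-R and 0, 3 and 0 in NOZ, a CPM ratio of 12.2 (95% counting interval 3.83 to 62.0). The silent subunit gene KCNS3 had 12 counts over NOZ-R (1, 7 and 4) and 1 over NOZ, with an interval of the ratio from 1.91 to 551.6. These intervals rest on summed counts and leave out the spread between libraries. In the fit described below, run without its filter on low counts, KCNS3 did not pass (edgeR with adjusted p = 0.0538). KCNN3 (SK3) had 21 counts over NOZ-R and 4 over NOZ, all 4 in NOZ replicate 2. KCNIP3, a calcium-binding partner of KCND channels, had 25 counts over NOZ-R and 7 over NOZ. Nearer to it were KCNJ4, KCNK7 and KCNMB2, with 10 to 15 counts over NOZ-R and 4 to 8 over NOZ. Detected in NOZ only were KCNH3, KCNJ11 and KCNK12, with 3 to 5 counts over NOZ-R and 11 to 17 over NOZ.

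Of the 95 genes, 25 had enough counts to be tested, against 60.6% of protein-coding genes, in the fit across all 14386 tested genes (edgeR, quasi-likelihood, p adjusted by Benjamini-Hochberg at 0.05). Of these, 11 were higher in NOZ-R, 3 were lower and 11 did not pass. Over all tested genes 60.2% passed, 30.4% as higher and 29.8% as lower, so the share of potassium channel genes that passed, 14 of 25, was near the background. Past the test and at least 2-fold higher were 7 genes, and 1 was at least 2-fold lower, against 8.96% and 7.57% of all tested genes. Among the 7, KCNK5, KCNJ15 and KCNE4 reached the filter on low counts through NOZ-R alone, so the filter itself favours a difference for them. The CPM values of the lines did not overlap for 13 of the 25, against 65.3% of all tested genes. The median log2 fold change was 0.32 over the 25 genes and -0.01 over all tested genes. Without composition scaling the median over all tested genes was -0.14, with 9 higher and 4 lower potassium channel genes.

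**Figure D2:**
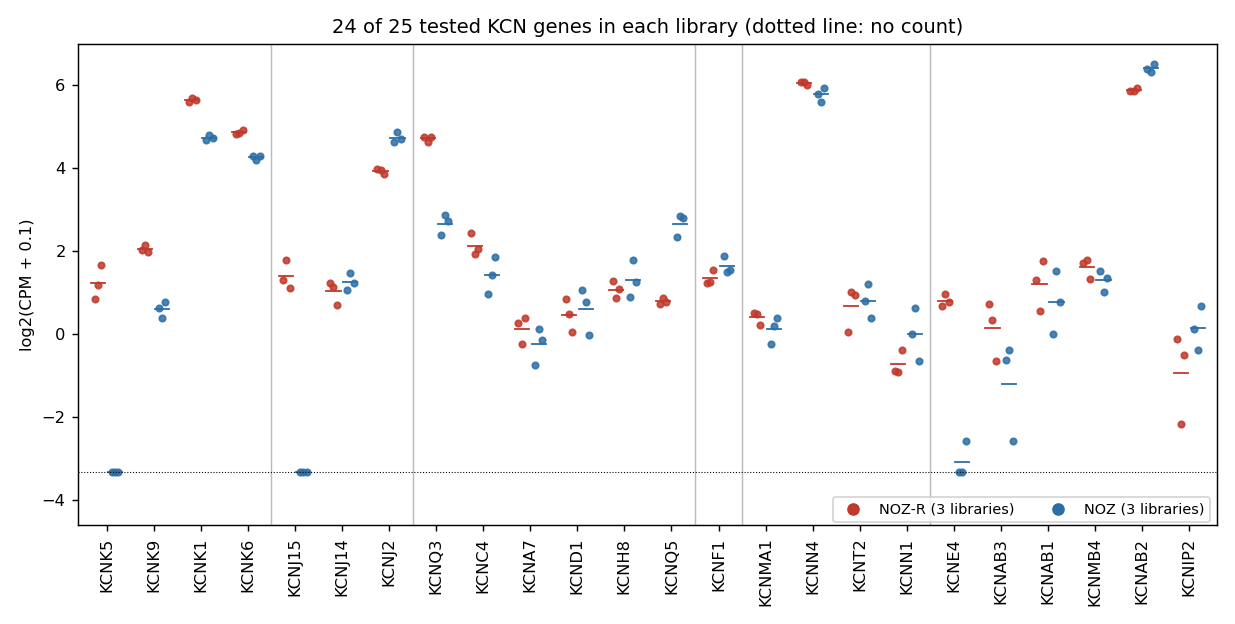
24 of the 25 tested KCN genes (horizontal axis, ordered by class with grey lines between classes) in each library as log2(CPM + 0.1) (vertical axis); points are libraries, short bars their means, NOZ-R in red and NOZ in blue. KCNK5 and KCNJ15 lie on the line of no count in all 3 NOZ libraries, and KCNQ3 and KCNQ5 are displaced in opposite directions.

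The level of these genes rested on a few. Per length, in FPKM (counts per kilobase scaled to the library total, without composition scaling), the 5 highest were KCNN4, KCNK1, KCNAB2, KCNK6 and KCNJ2. They held 82.7% ± 0.689 of the summed FPKM of the 95 genes in NOZ-R and 85.2% ± 1.07 in NOZ (SD, n = 3 each). The summed level was 53.5 ± 0.453 FPKM in NOZ-R and 46.6 ± 2.0 FPKM in NOZ. By class, the K2P genes summed to 19.4 ± 0.609 FPKM in NOZ-R and 11.5 ± 0.255 FPKM in NOZ, and the inward rectifiers to 3.45 ± 0.197 FPKM in NOZ-R and 5.71 ± 0.478 FPKM in NOZ (SD, n = 3 each). No test was made on the sums.

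**Figure D3:**
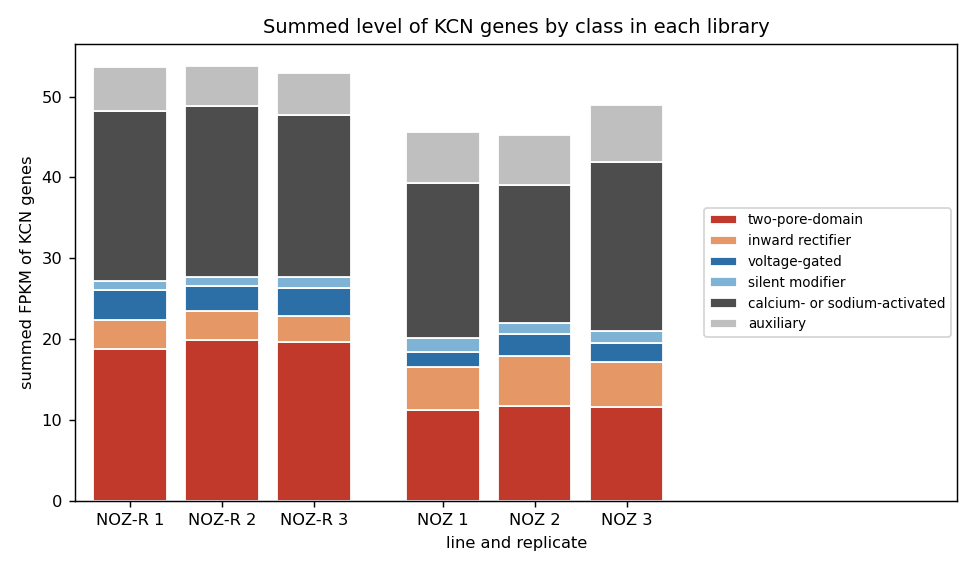
Summed FPKM of KCN genes (vertical axis) in each library (horizontal axis), stacked by class of subunit, NOZ-R libraries on the left. The K2P layer is thicker in the 3 NOZ-R libraries (mean 19.4 FPKM) than in the 3 NOZ libraries (mean 11.5 FPKM), and the inward rectifier layer is thinner.

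Promoters of KCNK5 and KCNJ15, the tested genes with no count in NOZ, and of KCNQ5, the gene that fell at least 2-fold, are shown so that the sequence at the annotated starts can be read beside the values. Each runs from 250 bases before to 50 bases after the RefSeq start (build GRCh38.p14), 5′ to 3′ on the gene's strand, and 71 of the 95 genes have an entry. Capitals mark matches on either strand to GGGCGG (GC box) or TGANTCA (AP-1 site). The KCNJ15 window lies well inside the GENCODE span of that gene (38155549 to 38307357), so its RefSeq start is an internal one. The KCNK5 and KCNQ5 windows lie near the 5′ ends of their spans. Which start these cells use was not measured.
KCNK5 promoter, chr6:39229426-39229725, minus strand: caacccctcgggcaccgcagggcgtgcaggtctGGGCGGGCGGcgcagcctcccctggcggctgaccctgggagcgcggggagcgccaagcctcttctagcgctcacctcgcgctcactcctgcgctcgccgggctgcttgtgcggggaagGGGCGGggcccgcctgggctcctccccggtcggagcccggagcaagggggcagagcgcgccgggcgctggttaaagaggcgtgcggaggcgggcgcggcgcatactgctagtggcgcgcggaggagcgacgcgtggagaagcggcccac
KCNJ15 promoter, chr21:38272258-38272557, plus strand: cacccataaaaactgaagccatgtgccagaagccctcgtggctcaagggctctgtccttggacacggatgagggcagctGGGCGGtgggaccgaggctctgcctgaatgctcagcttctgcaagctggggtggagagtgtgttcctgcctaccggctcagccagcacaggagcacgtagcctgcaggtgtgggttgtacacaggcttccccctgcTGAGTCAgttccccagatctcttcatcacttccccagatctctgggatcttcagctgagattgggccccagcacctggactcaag
KCNQ5 promoter, chr6:72621814-72622113, plus strand: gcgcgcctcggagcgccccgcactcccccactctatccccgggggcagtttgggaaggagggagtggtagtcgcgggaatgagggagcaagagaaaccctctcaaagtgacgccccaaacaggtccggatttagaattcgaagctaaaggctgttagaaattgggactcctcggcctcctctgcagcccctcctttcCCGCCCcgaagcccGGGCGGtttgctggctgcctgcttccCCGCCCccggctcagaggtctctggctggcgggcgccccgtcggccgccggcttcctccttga
The KCNK5 window holds 39 CpG dinucleotides, the KCNQ5 window 24 and the KCNJ15 window 6, against a median of 14 over all promoters of this length. GGGCGG matched 3 times in KCNK5, of which a pair shares 2 bases, 3 times in KCNQ5 and 1 time in KCNJ15, and it is held by 45% of the 35116 promoters. TGANTCA matched 1 time, in KCNJ15, and is held by 7.71%. TATAAA, held by 11.5%, and the core of the interferon response element, held by 3.57%, matched none of the 3 windows.

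All 4 tested K2P genes were higher in NOZ-R, and 11 of the 15 genes of this class were not tested for lack of counts. Over all tested genes 30.4% were higher, and KCNK5 reached the filter through NOZ-R alone. KCNK5, which encodes the acid-sensitive channel TASK-2 (chromosome 6, 39188973 to 39229450), had 31, 35 and 46 counts in NOZ-R and none in any NOZ library. Its mean in NOZ-R was 2.32 CPM ± 0.698 (SD, n = 3). Scaled to library size and composition, its 112 counts over NOZ-R stood 40.1-fold above the floor of 3 counts over the NOZ group. This bound leaves out the spread of the NOZ-R libraries. KCNK5 passed in edgeR with adjusted p = 3.39e-06. Its neighbours KCNK17 and KCNK16, 69551 and 85248 bases away on the same strand, had no count in any library. KCNK9, which encodes TASK-3 and lies on chromosome 8, measured 3.98, 4.34 and 3.82 CPM in NOZ-R and 1.45, 1.22 and 1.63 CPM in NOZ. The lines did not overlap, and the log2 difference was 1.504 (SE 0.206, edgeR with adjusted p = 2.59e-05).

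The other K2P genes were among the most abundant potassium channel genes and moved less. KCNK1 (chromosome 1, 233614004 to 233672512), which encodes TWIK-1, measured 48.5, 51.8 and 49.8 CPM in NOZ-R and 25.5, 27.9 and 26.5 CPM in NOZ, a log2 difference of 0.91 (SE 0.0744, edgeR with adjusted p = 1.89e-07). KCNK6 (chromosome 19, 38319844 to 38332076), which encodes TWIK-2, measured 28.5, 28.99 and 30.5 CPM in NOZ-R and 19.6, 18.4 and 19.6 CPM in NOZ, a log2 difference of 0.61 (SE 0.0804, edgeR with adjusted p = 1.84e-05). For both, every NOZ-R library lay above every NOZ library. Per length KCNK1 reached 13.5 FPKM ± 0.413 in NOZ-R, against 7.88 FPKM ± 0.386 in NOZ (SD, n = 3 each).

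Among the 16 inward rectifiers 3 could be tested, and they went different ways. KCNJ15 (chromosome 21, 38155549 to 38307357), which encodes Kir4.2, had 43, 54 and 31 counts in NOZ-R and none in NOZ. Its mean in NOZ-R was 2.60 CPM ± 0.662 (SD, n = 3). Its 128 counts over NOZ-R, scaled in the same way, stood 45.9-fold above the same floor, again without the spread of the NOZ-R libraries. KCNJ15 passed in edgeR with adjusted p = 1.59e-06. KCNJ6, 34204 bases from it on the other strand, had 0 counts over NOZ-R and 1 over NOZ. KCNJ2 (chromosome 17, 70168673 to 70180048), the strong rectifier Kir2.1 and the most abundant member of this class per length, measured 15.7, 15.5 and 14.3 CPM in NOZ-R and 24.6, 29.3 and 25.9 CPM in NOZ. It fell in NOZ-R by 0.81 in log2 (SE 0.0950, edgeR with adjusted p = 6.47e-06), with no overlap between the lines. KCNJ16, 33065 bases from KCNJ2, had 0 counts over NOZ-R and 2 over NOZ. KCNJ14 did not pass, at a log2 difference of -0.21 (edgeR with adjusted p = 0.468). KCNJ11, a pore subunit of ATP-sensitive channels, had 5 counts over NOZ-R and 17 over NOZ, and KCNJ8, the alternative pore subunit, had none. KCNJ12 and KCNJ18 are near-identical copies whose reads may be split, and KCNJ12 had 6 counts over NOZ-R and 1 over NOZ.

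In the voltage-gated class the KCNQ genes moved apart. KCNQ channels (Kv7) open near the resting potential and carry slow outward currents. KCNQ3, on chromosome 8, measured 27.1, 24.8 and 27.1 CPM in NOZ-R and 5.19, 7.20 and 6.57 CPM in NOZ. All NOZ-R libraries were far above all NOZ libraries, and the log2 difference was 2.06 (SE 0.120, edgeR with adjusted p = 6.33e-09). KCNQ5 (chromosome 6, 72621792 to 73198851) measured 1.55, 1.73 and 1.61 CPM in NOZ-R and 4.94, 7.09 and 6.84 CPM in NOZ. It fell in NOZ-R by 1.94 in log2 (SE 0.204, edgeR with adjusted p = 2.28e-06), again with no overlap. Per length, KCNQ3 stood at 1.98 FPKM ± 0.105 in NOZ-R and 0.520 FPKM ± 0.0858 in NOZ, and KCNQ5 at 0.137 FPKM ± 0.00758 in NOZ-R and 0.580 FPKM ± 0.110 in NOZ (SD, n = 3 each). In NOZ-R every KCNQ3 value was above every KCNQ5 value, whereas in NOZ the FPKM values of these genes overlapped. The epithelial and cardiac KCNQ1 had 1 count over NOZ-R and 6 over NOZ.

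Other voltage-gated genes changed little or were near 0. KCNC4 (Kv3.4) measured 5.31, 3.72 and 4.02 CPM in NOZ-R and 1.85, 2.60 and 3.52 CPM in NOZ, a log2 difference of 0.75 (SE 0.236, edgeR with adjusted p = 0.0143). The lowest NOZ-R library was only just above the highest NOZ library, and the call was lost without NOZ replicate 1 (0.53, adjusted p = 0.0669), without NOZ-R replicate 1 (0.57, adjusted p = 0.0846) and with the medians of chromosomes removed (0.58, adjusted p = 0.0522). On log2(FPKM + 1) and log2(FPKM + 0.1) limma did not call it (adjusted p = 0.198 and 0.143). KCNA7, KCND1 and KCNH8 did not pass, with log2 fold changes of 0.42, -0.20 and -0.28. Of the 8 KCNA genes, which form the Kv1 channels, KCNA7 was the 1 detected, and KCNA4 had 1 count in all. KCNF1, a silent subunit, was the 1 tested member of its class, at 2.46 CPM ± 0.310 in NOZ-R and 3.05 CPM ± 0.475 in NOZ (SD, n = 3 each), for a log2 difference of -0.33 (edgeR with adjusted p = 0.190, not past the test).

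KCNN4, the intermediate-conductance calcium-activated channel KCa3.1 of epithelia and lymphocytes, had the highest level per length of all 95 genes in both lines. It stood at 20.3 FPKM ± 0.670 in NOZ-R and 18.5 FPKM ± 2.08 in NOZ (SD, n = 3 each). In CPM (chromosome 19, 43766533 to 43781261) it measured 67.4, 67.6 and 64.0 in NOZ-R and 55.8, 48.7 and 61.2 in NOZ. The NOZ-R values were slightly above all NOZ values, with a log2 difference of 0.27 (SE 0.0814, edgeR with adjusted p = 0.0118). The call was lost with scaling by library size alone (log2 fold change 0.14, adjusted p = 0.158), after GC correction (0.14, adjusted p = 0.0555) and with the medians of chromosomes removed (0.20, adjusted p = 0.0563), and by limma on both FPKM scales (adjusted p = 0.177 and 0.173). KCNMA1, the large-conductance BK channel, did not pass at 0.32 (edgeR adjusted p = 0.392), while chromosome 10, which holds it, had a median of -0.60 over its tested genes. With that median removed KCNMA1 passed, at 0.91 (adjusted p = 0.0230). KCNT2 (-0.15) and KCNN1 (-0.93, edgeR adjusted p = 0.0786) did not pass, though KCNN1 passed without NOZ replicate 3 (adjusted p = 0.0336) and with scaling by library size alone (adjusted p = 0.0479). Without NOZ replicate 2 it stood at -0.53 (adjusted p = 0.372).

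Among the auxiliary subunits, KCNE4 was read almost solely in NOZ-R. KCNE4 (chromosome 2, 223051814 to 223198399), known as an inhibitory partner of KCNQ1 and KCNA3, had 27, 30 and 24 counts in NOZ-R and 0, 0 and 1 in NOZ. The CPM ratio was 87.1 (95% counting interval 15.2 to 3482, edgeR with adjusted p = 2.88e-06). Of those known partners, KCNA3 had no count and KCNQ1 had the few counts given above. KCNAB2 (chromosome 1, 5991466 to 6101193), the Kv1 beta subunit with an aldo-keto reductase fold, measured 58.2, 58.1 and 61.6 CPM in NOZ-R and 84.8, 79.4 and 91.6 CPM in NOZ. It fell in NOZ-R by 0.52 in log2 (SE 0.0696, edgeR with adjusted p = 2.04e-05), without overlap. KCNAB3 had 28, 19 and 8 counts in NOZ-R and 11, 12 and 1 in NOZ. The lines overlapped, and its call at a log2 difference of 1.29 (SE 0.530, edgeR with adjusted p = 0.0497) was lost in 12 of 18 alternative settings. These include leaving out NOZ replicate 1 (adjusted p = 0.0577), NOZ replicate 3 (adjusted p = 0.132), NOZ-R replicate 1 (adjusted p = 0.224) or NOZ-R replicate 2 (adjusted p = 0.116). KCNMB4, the BK beta subunit of neurons, and KCNAB1 did not pass, with log2 fold changes of 0.32 and 0.41, nor did KCNIP2 at -0.96 (edgeR adjusted p = 0.115). Without NOZ replicate 2, KCNAB1 passed at 0.92 (adjusted p = 0.0388) and KCNIP2 at -1.20 (adjusted p = 0.0476). In the other direction, KCNAB1 stood at 0.066 without NOZ replicate 1 and 0.11 without NOZ-R replicate 3. KCNIP2 stood at -0.50 without NOZ-R replicate 2 and -0.37 with the median of chromosome 10 removed.

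**Figure D4:**
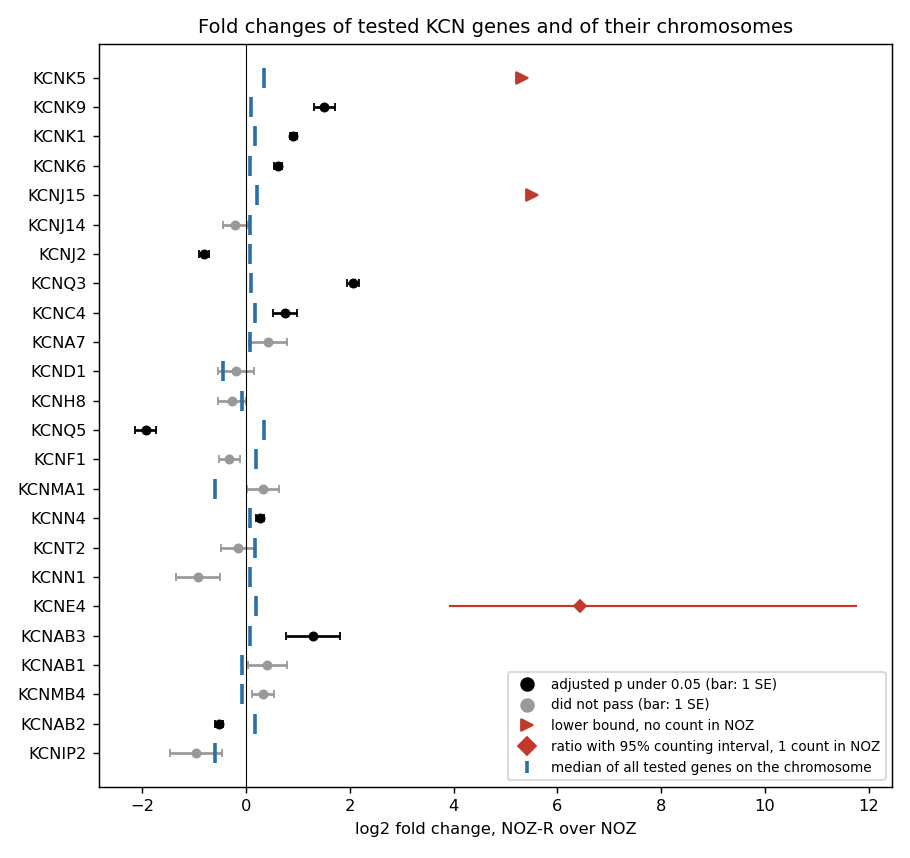
Log2 fold change of NOZ-R over NOZ (horizontal axis) for 24 of the 25 tested KCN genes (vertical axis). Circles are edgeR estimates with 1 SE, black past the test and grey not. Red triangles are lower bounds for KCNK5 and KCNJ15 from counts summed over NOZ-R, without the spread of its libraries. The red diamond is the ratio of KCNE4 with its 95% counting interval, and blue ticks are the median of all tested genes on the same chromosome. KCNQ5 lies at -1.94 on a chromosome with a median of 0.33.

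The position of the genes was set beside their values. The chromosome medians of the tested genes ranged from -0.62 on chromosome 9 to 0.33 on chromosome 6. KCNK5 and KCNQ5, which moved in opposite directions, both lie on chromosome 6. Within 500 kb of KCNK5 lay 2 other tested genes, 1 higher and 1 lower, and within 500 kb of KCNQ5 lay 9, of which 4 were higher and none lower. The 4 tested genes around KCNE4 and the 1 around KCNJ15 did not pass. Of the 4 around KCNQ3, 1 was higher and none lower. With the medians of chromosomes removed, 9 potassium channel genes were higher and 4 lower. The library protocol describes no step that marks strand, so exons shared with a gene on the other strand cannot be told apart. Among the 25 tested genes, such sharing covers 1.16% of the exon bases of KCNAB2, 1.18% of those of KCNMA1, 1.77% of those of KCNAB1, 3.32% of those of KCNJ2, 3.73% of those of KCNQ5, 12.2% of those of KCNIP2 and 16.5% of those of KCNJ14.

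Other genes that handle potassium were read from lists made by hand. All 4 tested genes of the sodium-potassium and proton-potassium pump list, of 18 listed, were higher in NOZ-R, with a median log2 fold change of 0.54, where 30.4% of all tested genes were higher and 29.8% lower. The pump partner subunits ATP1B1 and ATP1B3 rose by 0.56 and 0.41 and the regulator FXYD5 by 0.53 on the log2 scale, and these were named after their values were seen. Of 7 tested channel partners and regulators among 16 listed, 3 were higher and 3 lower. SGK1, a kinase that raises ion transport in epithelia, averaged 10.5 CPM ± 1.10 in NOZ-R and 2.09 CPM ± 0.483 in NOZ (SD, n = 3 each), for a log2 difference of 2.34 (SE 0.177, edgeR with adjusted p = 8.81e-08). The cotransporter-activating kinase STK39 rose by 1.05 on the log2 scale (edgeR with adjusted p = 2.59e-08). AKAP9, an anchoring protein known to bind KCNQ1, fell by 1.5 (edgeR with adjusted p = 2.25e-06). Of 4 tested cation-chloride cotransporters among 7 listed, 1 was higher and 2 were lower. Of 7 tested intracellular and cyclic-nucleotide-gated cation channels among 8 listed, 2 were higher and 2 lower. There HCN2 rose by 1.57 on the log2 scale (edgeR with adjusted p = 3.42e-06). The median log2 fold changes of these 3 lists were 0.02, -0.14 and 0.03, against -0.01 over all tested genes.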

How the data were processed

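Gene counts and FPKM values for the same genes were deposited by the authors. Reads were processed with fastp 0.22.0 for build GRCh38, according to the submitters' processing notes; aligner, counter, strand setting and annotation release: not given in the sources used here. The deposited FPKM values are each gene's count divided by the library's total and by 1 fixed length per gene, with no composition correction.

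NOZ-R was compared with NOZ on the whole table of counts with edgeR 4.0.16 in R 4.3.3 (filterByExpr, TMM factors of 0.954 to 0.961 in NOZ-R and 1.04 to 1.05 in NOZ, quasi-likelihood test, Benjamini-Hochberg adjustment over 14386 genes). CPM values use the TMM-scaled sizes. Standard errors are the log2 fold change over the square root of F. Counting intervals are exact binomial (95%) on counts summed over each line, and leave out the spread between libraries. Positions, overlaps and GC content come from GENCODE on GRCh38, and promoters from RefSeq.

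Genes given in full were those past the test with at least 2-fold change, the 5 of highest mean FPKM and those detected in 1 line only. The members, marker lists and rules were chosen with earlier results of these data known. Values of some genes are not reported here. Alternatives used DESeq2 1.42.0 and limma 3.58.1 on log2 FPKM. Replicate pairs differed by more than sampling noise (chi-square per gene 2.13 to 10.0), and NOZ replicate 2 stood apart in GC content (its deviation and GC had a rank correlation across genes of -0.509, against 0.315 and 0.378 in NOZ replicates 1 and 3).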

Additional observations from a re-analysis of the deposited data

How the results depend on the processing

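Of the 14 potassium channel genes past the test, 6 kept direction and call in every alternative: KCNE4, KCNJ15, KCNK5, KCNK9, KCNQ3 and KCNQ5. The test against a 2-fold change gave 5 higher and 1 lower, since it asks for a larger change, and was the 1 setting that ended the calls of KCNAB2, KCNJ2, KCNK1 and KCNK6. The other settings that use all libraries and a filter on low counts gave 8 to 11 higher and 3 to 4 lower. No filter tested 65 genes, gave 14 higher and 3 lower, and added KCNN2 (adjusted p = 9.01e-05), KCNN3 (adjusted p = 0.0232) and KCNIP3 (adjusted p = 0.0419). Leaving out each library gave 9 to 13 higher and 3 to 4 lower. Without NOZ replicate 2 the counts were 13 and 4. Genes detected in NOZ-R numbered 56 with at least 1 count in any library, 23 with at least 0.1 FPKM and 19 with at least 1 CPM in every library, and 29 to 31 without each library. In NOZ they numbered 58, 18 and 14, and 24 to 25. Signs changed for genes that did not pass: KCND1 with chromosome medians removed (0.25) and without NOZ replicate 1 (0.0804; without each library -0.44 to 0.0804), KCNH8 without NOZ replicate 2 (0.0213; -0.49 to 0.0213), and KCNT2 without NOZ replicate 2 (0.08) or NOZ-R replicate 1 (0.13; -0.34 to 0.13). KCNF1 passed on both FPKM scales (adjusted p = 0.0393 and 0.0454) and with chromosome medians removed (adjusted p = 0.0484). The cause was not tested. Deviations of libraries of the same number were weakly correlated (0.103, -0.030 and -0.066). With 3 libraries per line, this cannot decide whether libraries of the same number were prepared together. With the replicate number as a block, 11 potassium channel genes were higher and 3 lower, with no call changed. Depth limits the genes near 0, where 1 count is about 0.05 CPM.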

Other observations

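Rows whose symbol starts with KCN but that lie outside the rule, mostly antisense and other noncoding transcripts of the same loci, numbered 28, of which 14 had a count and 3 could be tested. KCNQ1OT1, the imprinted noncoding RNA annotated on the other strand within KCNQ1, averaged 1.73 CPM ± 0.108 in NOZ-R and 7.71 CPM ± 1.48 in NOZ (SD, n = 3 each). The log2 difference was -2.16 (SE 0.194, edgeR with adjusted p = 4.88e-07), while KCNQ1 itself had 1 count over NOZ-R and 6 over NOZ. KCNJ5-AS1 averaged 5.53 CPM ± 0.338 in NOZ-R and 7.34 CPM ± 0.374 in NOZ (SD, n = 3 each), for a log2 difference of -0.41 (SE 0.134, edgeR with adjusted p = 0.0179), with KCNJ5 at 2 counts over NOZ-R and 3 over NOZ. KCNMB2-AS1 did not pass (log2 fold change -0.50, edgeR adjusted p = 0.158). For KCNQ1OT1 and KCNJ5-AS1 the row of the antisense transcript thus held more counts than the row of the channel gene in both lines. The library protocol describes no step that marks strand, so which strand these reads came from cannot be told.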
